A study of Mus musculus with 24 samples.

Results

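The miR-302-367 cluster is a run of 5 microRNA hairpins, Mir302b, Mir302c, Mir302a, Mir302d and Mir367, that are cut from a shared primary transcript. Of 584 miRNA assays on the cards, 8 read this cluster. They were chosen by name, as the mouse assays for miR-302a, miR-302b, miR-302c or miR-302d in either strand and the mouse assay for miR-367. The guide strands miR-302a, miR-302b, miR-302c, miR-302d and miR-367 stood on card A, and the star strands miR-302a*, miR-302b* and miR-302c*, from the other arm of the same hairpins, stood on card B.

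Levels of mouse miRNAs were read with real-time PCR assays laid out on cards (TaqMan low density arrays), for 4 groups with 3 replicates each. PYS is a teratocarcinoma line of adherent, epithelial-like cells. L-1210 is a lymphocytic leukaemia line and M1 a myeloid leukaemia line, both grown in suspension. All the lines were taken as fresh cultures at passage 3, and each is a single line of unstated clonal origin. CT-BM was primary mouse bone marrow washed out of the femur and tibia. Its growth protocol nevertheless describes cultured cells in suspension, and the series title speaks of stem cells, so the state in which the marrow was measured is not known. No group was treated, and the labels name no strain, age or engineered allele. They do not say whether replicates are separate cultures or animals, so each p-value covers the spread between these samples only, which may be technical.

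MicroRNAs act mainly through their seed, bases 2 to 8, which pairs with target messenger RNAs. In mouse and human embryonic cells the miR-302-367 cluster is switched on by the pluripotency factors Oct4 and Sox2. Its miR-302 strands are known to repress inhibitors of the cell cycle such as Cdkn1a and parts of the TGF-beta pathway, and the cluster has been used to help reprogram somatic cells. In the mouse it is best known from the epiblast and from epiblast-like stem cells, while the unlinked miR-290 to miR-295 cluster, which carries a related seed, is best known from naive embryonic stem cells.

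The mature strands are shown because the seed decides which other miRNAs can be matched to them. Sequences were found for 7 of the 8 assays in RefSeq (mouse assembly GRCm38.p6) and are written 5′ to 3′ with the seed in capitals. miR-302a is named only.
miR-302b: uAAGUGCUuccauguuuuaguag
miR-302c: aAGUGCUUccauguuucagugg
miR-302d: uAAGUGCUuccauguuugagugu
miR-367: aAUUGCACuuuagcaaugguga
miR-302a*: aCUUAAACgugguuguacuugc
miR-302b*: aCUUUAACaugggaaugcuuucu
miR-302c*: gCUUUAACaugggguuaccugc

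miR-302b and miR-302d shared the seed AAGUGCU and were identical at 20 of 23 bases. miR-302c, as RefSeq lists it, starts 1 base further into the same stretch, so its bases 2 to 8 read AGUGCUU, and it was identical to miR-302b at 20 of the 22 bases that overlap. miR-367 has an unrelated seed, AUUGCAC. The star strands of miR-302b and miR-302c shared the seed CUUUAAC and 16 of 22 bases. With so few differing bases between miR-302 guide strands, signal shared between their assays was not tested.

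All 5 hairpins lie on the plus strand of chromosome 3 within 580 bases, chr3:127545228-127545807 in GRCm38.p6, with gaps of 43 to 65 bases between neighbours. They fall inside the span of the long noncoding RNA gene Gm51018 on the same strand (chr3:127545089-127546903). The span of Larp7, which codes for a protein that binds the 7SK small nuclear RNA, covers the region on the opposite strand (chr3:127536714-127553349). Exon positions were not used here. The hairpins of Mir302b and Mir302c are shown because they gave the widest and the narrowest gap between the levels of their arms; capitals mark the star strand, on the 5′ side, and the guide strand, on the 3′ side.
Mir302b: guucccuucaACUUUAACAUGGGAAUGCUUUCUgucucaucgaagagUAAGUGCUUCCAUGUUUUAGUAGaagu
Mir302c: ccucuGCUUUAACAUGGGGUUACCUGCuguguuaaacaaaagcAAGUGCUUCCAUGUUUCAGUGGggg

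Each well gives a threshold cycle, or Ct, and a Ct lower by 1 stands for double the template. The deposited table held 8969 wells in 24 card runs, 367 to 380 per run, and 48.3% of the wells did not amplify. Wells with no Ct, or a Ct over 35, counted as not detected and were set to 35. The level used is a negative delta Ct, a log2 scale whose 0 is the mean Ct of 3 small control RNAs (MammU6, snoRNA135, snoRNA202) of the card. These controls came up earlier than in CT-BM on card A, by 0.942 cycles in PYS, 1.00 in L-1210 and 2.36 in M1. As a result, the level that a Ct of 35 stands for on card A differed between groups: it was -21.13 in PYS, -21.19 in L-1210, -22.55 in M1 and -20.19 in CT-BM. PYS detected 53.8% ± 0.44 of its miRNA assays (SD, n = 3), L-1210 48.6% ± 0.748, M1 44.7% ± 0.383 and CT-BM 51.7% ± 0.852. The number of replicates and wells limits the precision, and read depth does not apply.

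The groups were checked against marker miRNAs. The pluripotency markers were the 13 assays for the miR-290 to miR-295 family, of which PYS detected 11 in every replicate, L-1210 2, M1 1 and CT-BM 1. All 5 mature blood assays (miR-223, miR-142-3p, miR-142-5p, miR-150 and miR-146a) were detected in every replicate of L-1210, M1 and CT-BM, and 4 of them in PYS, at mean Ct of 25.03 to 31.99 in PYS and 13.5 to 23.1 in CT-BM. Among these, miR-150 came up earlier in PYS, at a mean Ct of 25.03, than in L-1210, at 26.33. CT-BM also detected all 4 mesenchymal and stromal assays and both erythroid assays, of which PYS detected miR-451, at a mean Ct of 27.4 in PYS and 20.8 in CT-BM. L-1210 detected miR-451 in no replicate, and M1 in 1 of the 2 present, at a Ct of 34.99. Of 6 muscle, liver and neuron assays PYS detected 4, L-1210 3, M1 2 and CT-BM 5. Muscle miR-133a stood at a mean Ct of 28.3 in PYS and 18.8 in CT-BM. Neuronal miR-124 was not detected in PYS and stood at 25.7 in CT-BM. Neuronal miR-9 ran the opposite way between these groups, at 23.9 in PYS and 28.5 in CT-BM. It stood at 18.6 in L-1210 and 20.1 in M1. Of the mesenchymal and stromal assays PYS detected 2, L-1210 1 and M1 2, and of the 5 epithelial assays PYS detected 4 and every other group all 5. What these markers contribute to the differences of the cluster was not tested.

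The whole cluster was detected in PYS and was at or near the limit of detection in L-1210, M1 and CT-BM. In PYS all 33 wells of the cluster amplified, and all 24 values of an assay in a replicate were detected. In the other groups 7 of 31 wells amplified in L-1210, 7 of 30 in M1 and 2 of 31 in CT-BM, all of them guide strands of miR-302a, miR-302b or miR-367. The earliest Ct of any of these was 32.4. With a Ct limit of 32 the number of cluster assays detected in every replicate was 8 in PYS and 0 in each of L-1210, M1 and CT-BM.

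**Figure D1:**
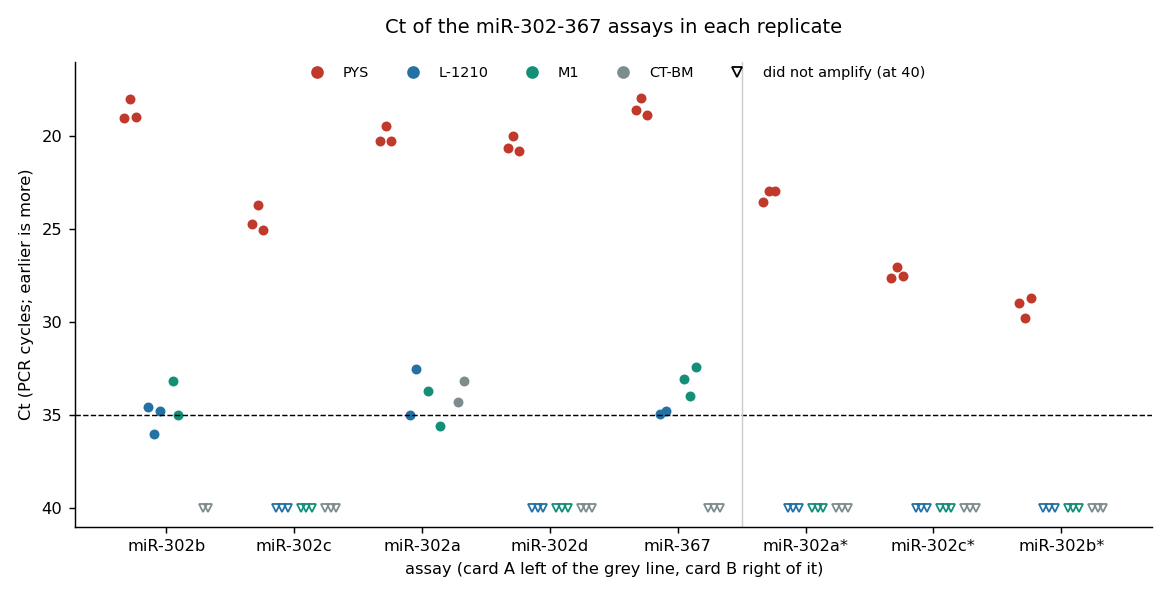
Ct (PCR cycles, axis turned so that more RNA is higher) of the 8 cluster assays in each replicate of PYS, L-1210, M1 and CT-BM, with the Ct limit of 35 as a dashed line; open triangles at 40 are wells that did not amplify. Every PYS point lies at a Ct of 29.8 or earlier, and the few points of the other groups lie at 32.4 or later.

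Among the miR-302 guide strands, which share most of their sequence, miR-302b had the earliest signal in PYS. Its Ct was 19.0, 18.0 and 19.0 in PYS replicates 1 to 3, against 34.5, 36.0 and 34.8 in L-1210. In M1 it was 33.1 and 34.98 in replicates 1 and 2 with replicate 3 absent from the table, and in CT-BM replicates 2 and 3 did not amplify, with replicate 1 absent. The PYS replicates lay within 1.03 cycles of each other and far from all other groups, and L-1210 replicate 2 was over the Ct limit.

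miR-302a gave Ct values of 20.2, 19.4 and 20.2 in PYS. In L-1210 it was absent in replicate 1 and came up at 34.997 and 32.5 in replicates 2 and 3, and in M1 it came up at 33.7 in replicate 1, was absent in replicate 2 and was over the limit at 35.6 in replicate 3. The CT-BM values were 34.3 and 33.2 in replicates 2 and 3, with replicate 1 absent. Thus miR-302a was the only member with any signal in CT-BM, and its late Ct values overlapped between L-1210, M1 and CT-BM.

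miR-302d came up at 20.6, 20.0 and 20.8 in PYS. miR-302c, the guide strand with the shifted seed, came up later, at 24.7, 23.7 and 25.0. Neither amplified in any of the 3 replicates of L-1210, M1 or CT-BM.

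miR-367, the member at the downstream end of the cluster, had the highest level in PYS, with Ct values of 18.6, 18.0 and 18.8. In L-1210 it came up at 34.9 and 34.8, with replicate 3 absent, and in M1 at 33.1, 34.0 and 32.4. It did not amplify in CT-BM. M1 was therefore the only group besides PYS in which miR-367 was seen in 3 replicates.

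Star strands, which are usually degraded after the guide strand is loaded, were detected in PYS and in no other group. miR-302a* had mean well values of 23.5, 22.9 and 22.9 in PYS replicates 1 to 3, miR-302c* of 27.6, 27.0 and 27.5, and miR-302b* of 29.0, 29.8 and 28.7. Their repeat wells differed by 0.0547 to 0.443 cycles in 9 sets. All star wells of L-1210, M1 and CT-BM stayed without a Ct.

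Relative to the controls, the PYS levels fell into an order that spanned many doublings. The mean negative delta Ct was -4.58 ± 0.10 for miR-367 and -4.77 ± 0.31 for miR-302b (SD, n = 3), and the replicates of these neighbours overlapped. Next came miR-302a at -6.11 ± 0.21 and miR-302d at -6.58 ± 0.11, each without overlap with the member above it. miR-302a* followed at -10.20 ± 0.04 and miR-302c at -10.60 ± 0.34, and these overlapped. The lowest were miR-302c* at -14.46 ± 0.26 and miR-302b* at -16.22 ± 0.71, which overlapped neither each other nor the member above them. Assay efficiencies are not given, and the star strands stood on another card, so this is an order of signals and not of molecule numbers.

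The members also took different places among all miRNAs of PYS. Of the 206 card A assays detected in every PYS replicate, miR-367 ranked 24, miR-302b 29, miR-302a 42, miR-302d 49 and miR-302c 110. Among the 106 such assays of card B, miR-302a* ranked 48, miR-302c* 81 and miR-302b* 93. The guide strands other than miR-302c thus stood in the upper part of the card A assays. Within PYS, replicate 2 had the earliest Ct for all 5 guide strands and for miR-302c*, and replicate 3 for miR-302a* and miR-302b*. On the card A controls replicate 2 was also the earliest, with a mean of 13.5 cycles, against 13.9 in replicate 1 and 14.2 in replicate 3.

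**Figure D2:**
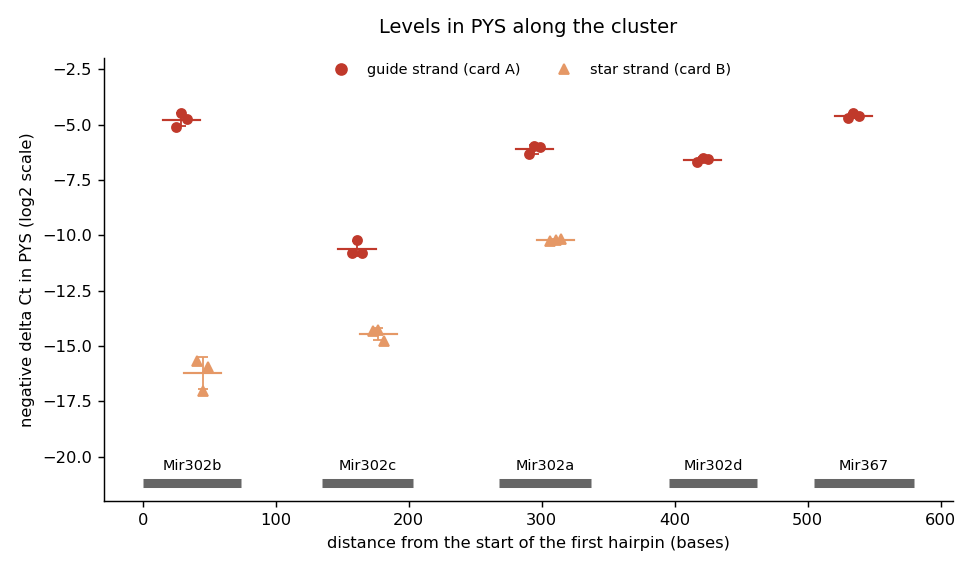
Negative delta Ct (log2 scale) of each PYS replicate for guide strands (circles) and star strands (triangles), at the position of their hairpin in bases from the start of Mir302b; long bars are means, error bars SD (n = 3), and grey blocks the hairpins. Guide levels lie between -4.58 and -6.58 for 4 of the 5 hairpins and at -10.60 for Mir302c, and each star strand lies below its guide strand.

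The arms of the same hairpin differed by amounts that varied from hairpin to hairpin. The guide minus star difference of miR-302b was 10.59, 12.54 and 11.22 in the PYS replicates, a mean of 11.45 ± 1.00 (SD, n = 3) or 2797-fold. That of miR-302a was 3.91, 4.24 and 4.15, a mean of 4.10 ± 0.17 or 17.1-fold. That of miR-302c was 3.51, 4.08 and 3.97, a mean of 3.85 ± 0.30 or 14.5-fold. Guide was above star in every replicate, and the miR-302b difference lay outside the range of the other two hairpins, whose replicates overlapped. Before scaling to each card's controls the star Ct was later than the guide Ct by 10.5 ± 1.13 cycles for miR-302b, 3.15 ± 0.429 for miR-302a and 2.91 ± 0.424 for miR-302c, so the offset between the controls of the cards adds to each printed difference. The arms were read by different assays on different cards, and these differences are a description without a test.

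The comparison of PYS with CT-BM sets the teratocarcinoma line against primary marrow. All 8 members were higher in PYS (called at an adjusted p below 0.05 with a difference of 2-fold or more), and no PYS replicate overlapped a CT-BM replicate in any of them. Except for miR-302a, which CT-BM also detected, the members entered the test only through their signal in PYS. Over all 362 assays tested, 39.8% were called higher in PYS, and 89.5% had groups that did not overlap. The median log2 difference was 11.65 over the members, of which 7 are bounds at the Ct limit, and 0.08 over all assays tested.

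miR-302a was the only member measured in both groups, at -6.11 ± 0.21 in PYS (n = 3) and at -18.77 in CT-BM (n = 2, replicate 1 absent). Its log2 fold change was 12.67 ± 0.60 (SE), or 6513-fold, with an adjusted p of 1.43e-08 by limma. For the remaining members CT-BM gave no signal, so each fold is a lower bound. miR-367 was at least 49916-fold higher in PYS (log2 15.61 ± 0.38, adjusted p = 1.58e-12 by limma) and miR-302b at least 39476-fold higher (15.27 ± 0.57, adjusted p = 4.17e-10 by limma, CT-BM n = 2). miR-302d was at least 12465-fold higher (13.61 ± 0.27, adjusted p = 1.6e-13 by limma), and miR-302c, with its later signal, at least 770-fold (9.59 ± 0.29, adjusted p = 2.67e-12 by limma).

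Star strands followed the same direction, with bounds in the order of their PYS levels. Only miR-302c* and miR-302b* had bounds below those of all guide strands. miR-302a* was at least 1585-fold higher in PYS (10.63 ± 0.29), miR-302c* at least 83.2-fold (6.38 ± 0.30) and miR-302b* at least 24.5-fold (4.61 ± 0.37), with adjusted p of 9.3e-13, 2.59e-10 and 7.79e-08 by limma. A bound shows how far PYS stood above the detection limit, so the sizes of bounds do not rank the members by their difference from marrow. The standard error of a bound comes from a spread pooled over all 4 groups, also those outside the comparison. For miR-302b the SD was 0.31 in PYS and 1.72 in M1 (n = 2). Values set to the Ct limit vary only with the controls, so the standard error holds none of an unmeasured level. As these are bulk samples, fewer cells of a type and less RNA per cell cannot be told apart.

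**Figure D3:**
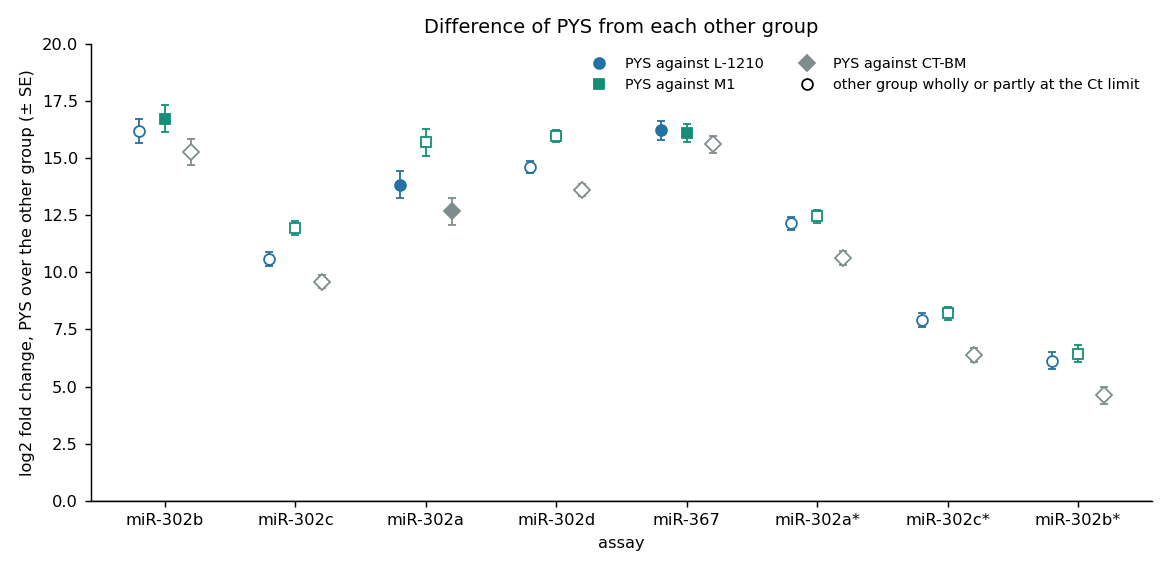
Log2 fold change of PYS over L-1210, M1 and CT-BM for each cluster assay, with SE from the limma fit; filled symbols were measured in all replicates present of both groups, and open ones have the other group wholly or partly at the Ct limit. All 24 values lie above 4, with the star strands miR-302c* and miR-302b* lowest.

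Against the leukaemia lines the members were higher in PYS as well. All 8 were called higher against L-1210, where 45.9% of 351 assays were called higher and 82.6% had groups without overlap. All 8 were also called higher against M1, where these shares were 46.0% and 83.0% of 341 assays. No PYS replicate overlapped either line in any member. Only miR-302a and miR-367 in L-1210, and miR-302b and miR-367 in M1, were detected in every replicate present. The other members entered these tests only through their signal in PYS, against a line wholly or partly at the Ct limit. The members' median log2 difference was 13.00 against L-1210 and 14.07 against M1, with 5 bounds in each, and that of all assays tested was 0.70 and 0.67.

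miR-367 could be measured in both leukaemia lines, in L-1210 only at Ct values of 34.94 and 34.77, next to the limit of 35. It was 76465-fold higher in PYS than in L-1210 (log2 16.22 ± 0.43, SE, L-1210 n = 2, adjusted p = 2.24e-12 by limma) and 70077-fold higher than in M1 (16.10 ± 0.38, n = 3 each, adjusted p = 7.36e-13 by limma). miR-302b was 75150-fold higher than in L-1210 (16.20 ± 0.51, 1 of 3 L-1210 replicates at the limit, adjusted p = 6.03e-11 by limma) and 109118-fold higher than in M1 (16.74 ± 0.57, M1 n = 2, adjusted p = 1.35e-10 by limma). The log2 difference of miR-302b from M1 was 17.95 without M1 replicate 1 and 15.52 without M1 replicate 2; those replicates stood at -20.29 and -22.72. After quantile normalization the differences from M1 were smaller, 10.85 for miR-302b and 10.83 for miR-367, and that of miR-367 from L-1210 was 13.29.

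miR-302a was 14729-fold higher in PYS than in L-1210 (13.85 ± 0.60, L-1210 n = 2, adjusted p = 5.28e-09 by limma). The log2 difference was 13.08 without L-1210 replicate 2 and 14.61 without replicate 3, each leaving a single L-1210 sample. Over M1 it was 52896-fold higher (15.69 ± 0.60, 1 of 2 M1 replicates at the limit, adjusted p = 1.89e-09 by limma), with 16.63 without M1 replicate 1 and 14.75 without replicate 3. Over the 23 alternatives the miR-302a difference ran from 12.09 to 15.10 against L-1210, from 12.52 to 16.79 against M1 and from 10.93 to 14.28 against CT-BM. All these folds rest on Ct values of 32.4 and later in the leukaemia lines. They also take each cycle as a doubling, since assay efficiencies are not given.

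The other members did not amplify in the leukaemia lines. miR-302d was at least 24985-fold higher in PYS than in L-1210 and at least 63844-fold higher than in M1. miR-302c was at least 1542-fold and 3942-fold higher against the same lines, miR-302a* at least 4565-fold and 5606-fold, miR-302c* at least 240-fold and 294.2-fold, and miR-302b* at least 70.5-fold and 86.6-fold. The adjusted p of these members by limma were at most 3.16e-09 against L-1210 and at most 1.89e-09 against M1. These p-values set PYS against the Ct limit and not against a measured level. Each bound is the PYS level minus the level of the detection limit, which lay lowest in M1.

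Between the leukaemia lines and marrow most members could not be compared. For L-1210 with CT-BM only miR-302a and miR-367 could be tested, and neither was called in limma, where 68.2% of 333 assays were called in either direction. miR-302a stood at -20.72 and -19.19 in L-1210, against -19.25 and -18.30 in CT-BM. The difference was -1.18 ± 0.67 (SE, n = 2 each, unadjusted p = 0.113, adjusted p = 0.135 by limma), with a 95% interval of -2.70 to 0.34. Without L-1210 replicate 3, which leaves a single L-1210 sample assumed to vary like the others, it was -1.94 (adjusted p = 0.0363 by limma), and it lay above 0 with MammU6 alone (0.95) and after quantile normalization (1.46). With snoRNA202 alone both members were called lower in L-1210, miR-302a at -3.01 (adjusted p = 0.00250 by limma) and miR-367 at -2.21 (adjusted p = 4.38e-05 by limma), the second against a limit in CT-BM.

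Of the 3 members that entered the comparison of M1 with CT-BM, only miR-302a was called, lower in M1, where 44.3% of 325 assays were called lower. It stood at -20.85 and at the limit of -22.74 in M1 replicates 1 and 3, against -19.25 and -18.30 in CT-BM, so the groups did not overlap, as in 79.7% of the assays tested. The difference was -3.02 ± 0.67 (SE, n = 2 each, 8.12-fold lower, adjusted p = 0.00258 by limma), and with a single M1 sample it was -3.96 without M1 replicate 1 and -2.08 without M1 replicate 3. The measured Ct values themselves, 33.7 and 35.6 in M1 and 34.3 and 33.2 in CT-BM, overlapped, while the card A controls were 2.36 cycles earlier in M1. After quantile normalization the difference was 1.13 (adjusted p = 0.420 by limma), and with a Ct limit of 32 miR-302a was detected in neither group.

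For miR-302b and miR-367 no direction against CT-BM can be given in either line. Both amplified in L-1210 and M1 and not in CT-BM, yet their normalized levels in those lines lay around or below the level that a Ct of 35 stands for in CT-BM. miR-367 averaged -20.80 in L-1210 and -20.68 in M1, against a limit of -20.19 in CT-BM, and miR-302b averaged -20.97 in L-1210, where it was not tested, and -21.51 in M1, against a limit of -20.04 in the CT-BM replicates present. None of these differences was called (adjusted p = 0.208, 0.266 and 0.0570 by limma), and those of miR-302b in M1 and of miR-367 in both lines lay above 0 with a Ct limit of 40. Without M1 replicate 1, which leaves a single M1 sample, miR-302b passed the test at -2.68 (adjusted p = 0.000222 by limma). It also passed with snoRNA202 alone at -1.74 (adjusted p = 0.0161 by limma) and, as adjusted with no filter, at -1.47 (adjusted p = 0.0270 by limma), each again a comparison with a limit.

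Relatives by seed were taken as mouse assays with a sequence in the RefSeq table used here that shares bases 2 to 7 with miR-302b and miR-302d, or with miR-367. The table does not hold every assay on the cards, so other assays may share these bases. The relatives are shown because they separate the miR-302 seed, for which the 5 matched assays come from the miR-290 to miR-295 cluster, from the miR-367 seed. The capitals again mark the seed.
miR-291a-3p: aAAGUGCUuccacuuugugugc
miR-294: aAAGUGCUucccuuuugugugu
miR-295: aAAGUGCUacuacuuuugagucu
miR-290-3p: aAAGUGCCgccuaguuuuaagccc
miR-25: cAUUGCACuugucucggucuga
miR-32: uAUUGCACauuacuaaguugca
miR-92a: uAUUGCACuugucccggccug

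The 5 matched relatives of the miR-302 seed were called higher in PYS against each of L-1210, M1 and CT-BM. The shares called higher over all assays tested were 45.9%, 46.0% and 39.8%. Apart from miR-295 in L-1210 and M1 and miR-294 in CT-BM, the relatives entered these tests only through PYS, where they are high. Against CT-BM their median log2 difference was 11.48, with 3 bounds, beside 0.08 over all assays tested. The smallest difference was that of miR-291b-3p, which came up at a mean Ct of 31.5 in PYS, 2.26 above the CT-BM limit on the log2 scale. Of the 5, 4 were called against CT-BM with a Ct limit of 32, and 4 after quantile normalization. miR-294, a regulator of the embryonic stem cell cycle, had Ct values of 16.8, 16.5 and 16.5 in PYS, against 27.5, 28.6 and 28.0 in CT-BM, so its marrow values were well within the Ct limit and earlier than any value of the cluster there. It was 10.47 ± 0.30 higher in PYS (SE, n = 3 each, adjusted p = 1.45e-12 by limma). miR-295 came up at 15.9, 15.4 and 15.7 in PYS, against 35.6, 33.6 and 37.0 in CT-BM, where only replicate 2 was within the limit.

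Neither of the remaining named relatives of the miR-302 seed came up in CT-BM. In PYS miR-291a-3p exceeded the limit there at least 106685-fold (log2 16.70 ± 0.27) and miR-290-3p at least 2863-fold (11.48 ± 0.29), with adjusted p of 1.6e-13 and 5.23e-13 by limma. Of the 13 miR-290 to miR-295 assays on the cards, 11 were tested, those detected in every PYS replicate, and miR-291a-5p and miR-293* were detected in no group. These 11 were called higher in PYS than in each other group, which is given as a description, since most of them entered the test only through PYS, where they are high. Among them were miR-293 (15.44 over CT-BM), miR-290-5p (13.57) and miR-292-3p (17.58), all 3 bounds.

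The relatives of the miR-367 seed, except miR-363, were measured in every group. miR-25, miR-32 and miR-92a were detected in every replicate of all 4 groups, and miR-363 in none. Against CT-BM 2 of the 3 were called higher in PYS, beside 39.8% of all assays tested, miR-32 by 1.85 ± 0.21 (3.60-fold, adjusted p = 2.41e-06 by limma) and miR-92a by 1.61 ± 0.24 (3.06-fold, adjusted p = 3.02e-05 by limma). miR-25 did not pass, at 0.39 ± 0.29 (adjusted p = 0.228 by limma), and its call and direction moved with the scaling. It stood below 0 with snoRNA135 alone (-0.53) or snoRNA202 alone (-0.20), and passed with MammU6 alone (1.90, adjusted p = 0.00263 by limma) and with the mean of assays common to all replicates (1.29, adjusted p = 0.000104 by limma), which made 3 of 3. With snoRNA135 alone miR-32 (0.93) and miR-92a (0.70) also fell short of a 2-fold difference.

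Against L-1210 the same 2 relatives were called higher in PYS, beside 45.9% of all assays tested, miR-32 2.11-fold and miR-92a 2.02-fold. None were with MammU6 alone, with snoRNA135 alone, scaled to the mean of assays common to all replicates, after quantile normalization, or without PYS replicate 3 or L-1210 replicate 1, and only 1 was without PYS replicate 2 or L-1210 replicate 3. Against M1 none was called: miR-32 differed by 0.82 (adjusted p = 0.00287 by limma, under 2-fold), miR-25 by 0.44 and miR-92a by -0.01. With MammU6 alone all 3 were called against M1.

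The let-7 family, which accumulates as embryonic cells differentiate, mostly ran the other way. In PYS 5 of 7 tested family members were lower than in CT-BM, where 38.7% of all assays tested were called lower. All 8 tested were lower than in L-1210 and than in M1, where these shares were 27.6% and 27.3%. The family had a median log2 difference of -3.97 from CT-BM. let-7g differed by -5.71 ± 0.24 (SE) on the log2 scale, let-7i by -6.08 ± 0.36 and let-7d by -3.97 ± 0.35, with adjusted p of 6.95e-11, 2.69e-09 and 2.09e-07 by limma. let-7f was not detected in PYS and at least 8373-fold lower there than in CT-BM (CT-BM n = 2). let-7b (-0.54 ± 0.71) and let-7c (-0.44 ± 0.46) did not pass against CT-BM, with adjusted p of 0.482 and 0.375 by limma. let-7a and miR-98 were detected in neither PYS nor CT-BM and were not tested there.

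**Figure D4:**
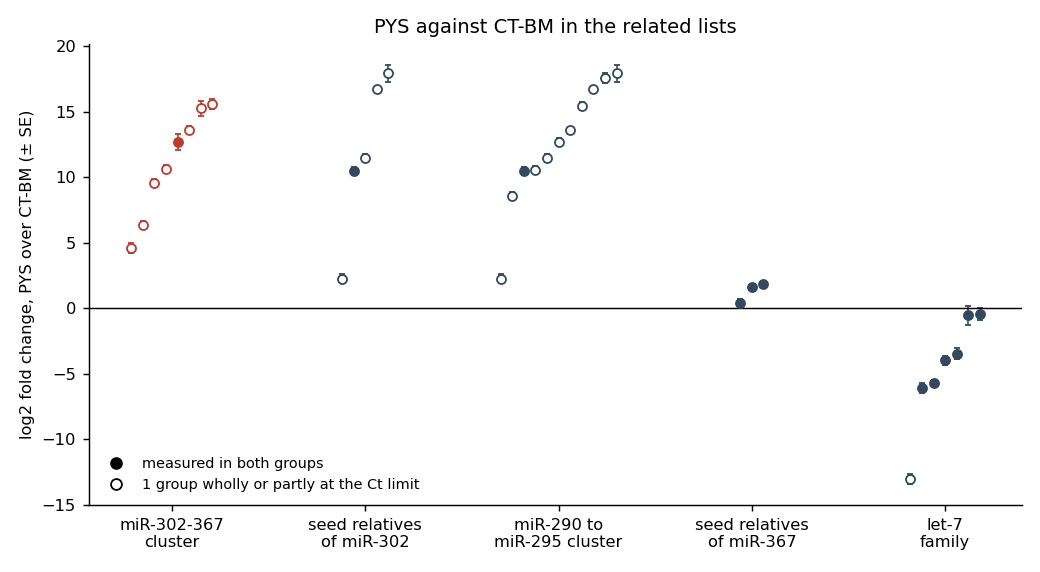
Log2 fold change of PYS over CT-BM (± SE, limma) for each tested assay of the cluster, of the relatives of its seeds, of miR-290 to miR-295 and of let-7; filled symbols were measured in both groups and open ones have a group wholly or partly at the Ct limit. The relatives of the miR-302 seed are also drawn in the miR-290 to miR-295 column, and let-7 values lie at or below -0.44.

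The assays whose levels followed the cluster most closely were sought over the 12 replicates. The mean profile of the 8 members was set against 241 assays detected in every PYS replicate and present in all 12. The highest Pearson correlations, 0.999 each, were those of miR-293, miR-294*, miR-290-5p, miR-715 and miR-151-3p. All 5 were detected in no replicate of L-1210, M1 or CT-BM, so what they share with the cluster is presence in PYS and the common detection limit elsewhere, and the points also share the controls of their cards. The first 3 belong to the miR-290 to miR-295 cluster. miR-715 averaged -8.34 in PYS and miR-151-3p -8.07.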

How the data were processed

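Members and lists were chosen with earlier results of these data known. Per the labels' protocols, total RNA was extracted with a mirVana kit, reverse transcribed, preamplified and run for 40 cycles on an Applied Biosystems 7900HT. In the deposited table the file headers name a Ct for every well and the mean Ct of an assay's wells, both in PCR cycles and not normalized (unit: other). The detection software is not given in the sources used here. The authors' design text names MammU6, snoRNA135 and snoRNA202 as controls.

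Wells of an assay on a card were averaged. Card A read each miRNA in 1 well, and on card B repeat wells had a median SD of 0.108 cycles over 849 sets. Ct over 35 and wells without a Ct were set to 35. The negative delta Ct, in log2 units, was fitted to 4 group means with lmFit and eBayes of limma 3.58.1, run in R 4.3.3, over 12 replicates. An assay was tested where every present replicate of at least 1 group was detected. P-values were adjusted by Benjamini-Hochberg over all assays tested in a comparison, and calls needed an adjusted p under 0.05 and a 2-fold difference. Where a group had no detected replicate, the fold is a bound at the Ct limit. Absent replicates were left out. The fit was tested on simulated data in which every value counted as detected. Tests against a group at the Ct limit were therefore not covered.

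Every member is named. From each related list, up to 4 assays with the largest moderated t of PYS against CT-BM are named, and the 5 assays with the most similar profile. miR-291b-3p is named as well, as the relative of the miR-302 seed with the smallest difference from CT-BM. Also named are let-7a, let-7b, let-7c and miR-98, not called or not tested in PYS against CT-BM. The 23 alternatives were other controls and scalings, Ct limits of 32 and 40, no filter, no fold minimum, a fit of the compared groups only, the replicate block and leaving out each replicate. Python 3.11.15 with pandas 2.3.3 and numpy 2.4.6 read the tables, and matplotlib 3.10.9 drew the figures.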

Additional observations from a re-analysis of the deposited data

How the results depend on the processing

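All 8 members were called higher in PYS than in L-1210, M1 and CT-BM under each of the 23 alternatives. The smallest log2 difference was 1.61, for miR-302b* against CT-BM with a Ct limit of 32. Where the other group stood at the Ct limit, the calls were largely fixed in advance, as every PYS value lay at a Ct of 29.8 or earlier. For those members the alternatives are a weak check. The sizes of bounds move with the Ct limit by construction, and measured differences from M1 were smallest after quantile normalization, 10.85 for miR-302b and 10.83 for miR-367. Scaling moved the median difference of all assays between PYS and CT-BM from 0.08 to -0.84 with snoRNA135 alone and 1.84 with MammU6 alone. The calls over all assays then turned from 144 higher and 140 lower to 104 and 171, and to 205 and 104. Against L-1210, 161 higher and 97 lower became 121 and 117 with snoRNA135 alone, 218 and 73 with snoRNA202 alone and 118 and 132 after quantile normalization. Against M1, 157 and 93 became 209 and 65 with MammU6 alone, 127 and 134 with snoRNA135 alone and 115 and 136 after quantile normalization.

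Results near the Ct limit were not stable, and the causes were not tested. Of L-1210 against CT-BM 0 members were called, but 2 with snoRNA202 alone, 1 after quantile normalization, 2 with a Ct limit of 40 and 5 with no filter, and 0 to 1 when a replicate was left out. There miR-302a turned to 0.95 with MammU6 alone and 1.46 after quantile normalization. miR-367 turned to 0.96 with MammU6 alone, 0.52 with the common-assay mean, 3.02 after quantile normalization and 4.38 with a Ct limit of 40. Of M1 against CT-BM 1 member was called, but 2 with snoRNA202 alone, 2 after quantile normalization, 0 with a Ct limit of 32, 3 with a limit of 40, 7 with no filter and 2 with the replicate block (miR-302b at -1.80, adjusted p = 0.0461 by limma), and 1 to 2 when a replicate was left out. There miR-367 turned to 0.0693 with the common-assay mean, 5.49 after quantile normalization and 4.51 with a Ct limit of 40, and ran from -0.77 to 0.0206 when a replicate was left out (0.0206 without M1 replicate 2); miR-302b turned to 5.13 after quantile normalization and 3.53 with a limit of 40, and miR-302a to 1.13 after quantile normalization. With a Ct limit of 40 and no filter, a group without signal enters at an arbitrary level. For L-1210 against CT-BM the calls over all assays, 75 higher and 152 lower, became 163 and 92 with MammU6 alone, 42 and 240 with snoRNA202 alone, 122 and 108 with the common-assay mean and 140 and 109 after quantile normalization. For M1 against CT-BM 82 and 144 became 53 and 163 with snoRNA202 alone and 136 and 109 after quantile normalization. With no filter the calls over all assays numbered 401 for PYS against M1 (250 otherwise), 473 for L-1210 against CT-BM (227) and 487 for M1 against CT-BM (226). In PYS against CT-BM miR-25 turned to -0.53 with snoRNA135 alone and -0.20 with snoRNA202 alone, and passed at 1.90 with MammU6 alone and 1.29 with the common-assay mean. Deviations of same-numbered samples from their group means correlated at -0.45 to 0.33, over 0.1 in 3 of 18 pairs. No steady pairing by replicate number was seen, but these correlations cannot show whether such samples were handled together. The replicate block left 8 members called in each comparison with PYS.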
